A study of Mus musculus with 39 samples.

Results

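The genes of the lipolytic pathway were examined in mouse subcutaneous adipose tissue: the lipases Pnpla2, Lipe and Mgll, the co-activator Abhd5, the inhibitor G0s2, and the beta-adrenergic receptors Adrb1 and Adrb3. Members were taken by gene symbol, with every probe that carries that symbol, and all 7 genes of 29411 gene names on the array were found, through 12 of its 40628 probes. The data were 39 single-colour Agilent arrays of total RNA from C57BL/6J mice. Mice were 3 to 4 weeks old at the start and received a low-fat control diet with 10% of calories from fat (LFC, 10 arrays), a high-fat diet with 60% of calories from fat and added sucrose (HFC, 11 arrays), or that high-fat diet with 5, 20 or 75 µg of the plant formulation KAL-1 (HF5, HF20 and HF75, 6 arrays each). HFC and LFC were both measured on Days 6, 10 and 14, at Week 0 and at Weeks 3, 6, 9, 12, 15 and 18, and HFC also at Day 1. The KAL-1 diets were measured at Weeks 3 to 18. Each diet had 1 array per time point, and the labels do not say whether an array was hybridised with RNA of 1 mouse or of several, nor the sex of the mice. Weeks were counted from Day 14 in the study, so Day 14 and Week 0 stand for the same age in repeated runs, and they are kept apart here as labelled. No other time point has a second array of a diet, and the p-values of the diet comparisons below measure the spread of differences between labelled time points. Those of the weekly slopes and of the correlations treat single arrays as separate, also arrays of the same time point.

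Fat cells store triglyceride in a droplet and release it as fatty acids and glycerol when the animal needs fuel. Noradrenaline acts on beta-adrenergic receptors, of which Adrb3 is the receptor typical of rodent fat cells, and raises cyclic AMP. Protein kinase A then phosphorylates the droplet proteins and hormone-sensitive lipase (Lipe), and Abhd5 is set free to activate adipose triglyceride lipase (Pnpla2), which G0s2 inhibits. Pnpla2 removes the first fatty acid, Lipe the next, and monoglyceride lipase (Mgll) the last.

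The probes decide what is measured for each gene. Below are the probes whose behaviour matters for the results. For Pnpla2 and Mgll, only the last 30 bases of the leading probe (the probe with the highest mean level over the arrays) are shown, with the polyadenylation hexamer AATAAA in capitals. In the G0s2 probe the capitals mark the first ATG. The others are whole probes without capitals, 5′ to 3′, as written in the array files, and the second Lipe probe also holds the letters of the hexamer.
Pnpla2, end of the leading probe: agcagatctAATAAAagccacagctcagct
Pnpla2, the second probe: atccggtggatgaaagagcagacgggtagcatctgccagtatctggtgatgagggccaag
Lipe, leading probe: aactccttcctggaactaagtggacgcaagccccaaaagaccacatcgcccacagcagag
Lipe, the second probe: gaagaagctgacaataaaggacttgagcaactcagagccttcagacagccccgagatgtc
Mgll, end of the leading probe: ctacagctcaccgtAATAAAaaccacgtgc
Mgll, the second probe: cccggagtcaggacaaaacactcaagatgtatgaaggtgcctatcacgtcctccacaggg
G0s2, only probe: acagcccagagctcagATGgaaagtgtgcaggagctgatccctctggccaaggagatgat
Adrb1, the second probe: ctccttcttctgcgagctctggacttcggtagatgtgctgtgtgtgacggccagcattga
The hexamer AATAAA was present in 7.5% of all 40628 probes, searched on the printed strand. The array files give no genome position for any of these probes. In the RefSeq promoter table used further below (GRCm38.p6), Pnpla2 and Lipe lie on chromosome 7, Mgll on chromosome 6, Abhd5 on chromosome 9, G0s2 on chromosome 1 and Adrb1 on chromosome 19.

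Levels are given as log2 of the processed intensity relative to the 75th percentile of the same array, so that 0 is that percentile and 1 unit is a doubling. Over all 39 arrays, between 49.32% and 87.77% of the spots were well above background. The leading probes of Pnpla2, Lipe, Mgll, Abhd5, G0s2 and Adrb3 were well above background on all 39 arrays, and that of Adrb1 on 36, the exceptions being HF75 Week 3, LFC Week 9 and LFC Week 18. The leading probe of Mgll was saturated on 16 arrays, that of Pnpla2 on 5 and that of Adrb3 on 2. A saturated spot has a capped intensity, so its level after scaling falls as the 75th percentile of its array rises. Mgll was at 5.56 on HF75 Week 12 (percentile 1285.3) and at 6.60 on HFC Week 9 (650), both saturated. Levels of saturated spots do not rank expression. In bulk tissue, fewer cells of a type and less RNA per cell cannot be told apart.

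Some arrays stood apart or conflicted with their labels. At Week 12 the array labelled HF5 matched the deposited HF20 ratios (Pearson r over probes of 0.999, against 0.663 for the HF5 ratios) and the array labelled HF20 matched the deposited HF5 ratios (0.999, against 0.666), so the HF5 and HF20 results for Adrb1 and Adrb3 and the counts of calls were also computed with these 2 arrays exchanged. A list of 10 skeletal muscle genes had a mean level above 4 on 5 arrays (HFC Day 1, LFC Day 6, HFC Day 6, HF75 Week 3 and the array labelled HF5 at Week 12), against a median of -0.74 over all arrays. The LFC array of Week 3 had the highest level of a list of 10 B and T lymphocyte genes, 2.25 against a median of -2.91. The HF20 array of Week 15 had 4936 outlier spots, against 474 or fewer on the others. It also had the highest share of spots well above background (87.77%). Fat cell markers were present, though they do not tell one depot from another: all 10 genes of a mature adipocyte list (Adipoq, Cfd, Retn, Lep, Slc2a4, Pparg, Cebpa, Lpl, Thrsp and Car3) were detected, and their mean level ran from 1.02 at HFC Week 15 to 5.47 at HFC Day 10. The mean of this list was below that of the muscle list on HFC Day 1 (2.34), HF75 Week 3 (3.28), HFC Day 6 (5.03) and the array labelled HF5 at Week 12 (4.78). Levels of different probes do not rank the amounts of the tissues. Titles differ for some arrays: that of LFC Week 12 names no week, that of HF5 Week 12 has a B where HF20, HF75 and HFC have an S, and at Week 3 HFC carries R3 where LFC, HF5 and HF20 carry R2. The labelled diet and time point were kept for all of them.

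Adrb3, the beta-3 receptor, varied most. Its level ran from -1.79 (HF20 Week 6) to 6.31 (HFC Day 10), a span of 8.10 log2 units, and its standard deviation over the 39 arrays (2.15) exceeded that of 96.4% of 22714 genes, whose median was 0.865. In LFC the lowest, median and highest values were -0.32, 1.88 and 6.12. In HFC they were -1.35, 2.85 and 6.31. Values above 5 came from Day 6 of both diets, LFC Week 12, HFC at Day 10 and Weeks 3, 6 and 9, and the array labelled HF5 at Week 12. In HF5 the lowest, median and highest values were 0.22, 0.94 and 5.32, in HF20 -1.79, 1.26 and 3.72, and in HF75 0.77, 2.01 and 3.63. The ranges of all 5 diets overlapped.

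Lipe, hormone-sensitive lipase, had the next widest relative spread, with a standard deviation of 1.39 that was larger than that of 85.1% of genes. In LFC it ran from -1.77 at Week 3 through a median of 0.93 to 3.67 at Day 6. In HFC it ran from -1.48 at Week 15 through 0.89 to 3.54 at Day 10. In the KAL-1 diets the medians were 0.71 (HF5), 0.39 (HF20) and 0.91 (HF75), and no array exceeded 2.33. The ranges of the diets overlapped.

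Pnpla2, the triglyceride lipase that starts the pathway, spanned less with its leading probe: 3.28 (HFC Week 15) to 6.41 (HFC Week 6). Its medians were 4.66 in LFC, 4.72 in HFC, 4.28 in HF5, 4.04 in HF20 and 4.53 in HF75. The second Pnpla2 probe, never saturated, spanned 5.22 log2 units against 3.12 for the leading probe, and the probes ranked the arrays alike (Pearson r = 0.83, Spearman rho = 0.78, n = 39).

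Mgll, monoglyceride lipase, had medians of 6.31 in LFC, 6.02 in HFC, 5.99 in HF5, 5.86 in HF20 and 5.83 in HF75, with saturated spots on 16 arrays. Its highest value, 7.90, was on LFC Week 18, the dimmest array (75th percentile 107.91), where the spot was not saturated. Its lowest values were 2.94 at HFC Day 1 and 3.55 at HF75 Week 3, the arrays with the highest skeletal muscle list levels (6.22 and 7.58). The third lowest was 4.43 on the LFC array of Week 3. On the other muscle-rich arrays Mgll was not low: 6.57 on the array labelled HF5 at Week 12, 6.26 at LFC Day 6 and 6.19 at HFC Day 6, all saturated. The share of other tissues in these values was not tested.

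Abhd5, the co-activator of Pnpla2, ran from -2.70 (LFC Week 18) to 1.56 (LFC Day 6). Its medians were -0.88 in LFC, -0.75 in HFC, -1.17 in HF5, -1.31 in HF20 and -0.93 in HF75. G0s2, the inhibitor, ran from -0.58 (LFC Week 18) to 5.07 (HFC Day 6), with medians of 0.68 in LFC, 1.70 in HFC, 0.76 in HF5, 0.75 in HF20 and 1.26 in HF75. Each was highest on an array of Day 6, and the G0s2 level was also 3.06 on the muscle-rich HFC Day 1 array, on which Adrb3 was at -0.54.

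Adrb1, the beta-1 receptor, was the dimmest, from -6.09 (HF75 Week 3, not above background) to -0.53 (HFC Day 6), with medians of -3.83 in LFC, -3.20 in HFC, -3.54 in HF5, -3.22 in HF20 and -3.85 in HF75. Its probes did not rank the arrays alike: Pearson r was 0.16 and Spearman rho 0.05 (n = 39), and the second probe was above background on 23 arrays only. For Lipe, Mgll and Abhd5 the corresponding r values between probes were 0.96, 0.92 and 0.94. Adrb1 values below rest on its brighter probe and do not carry over to the other.

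**Figure D1:**
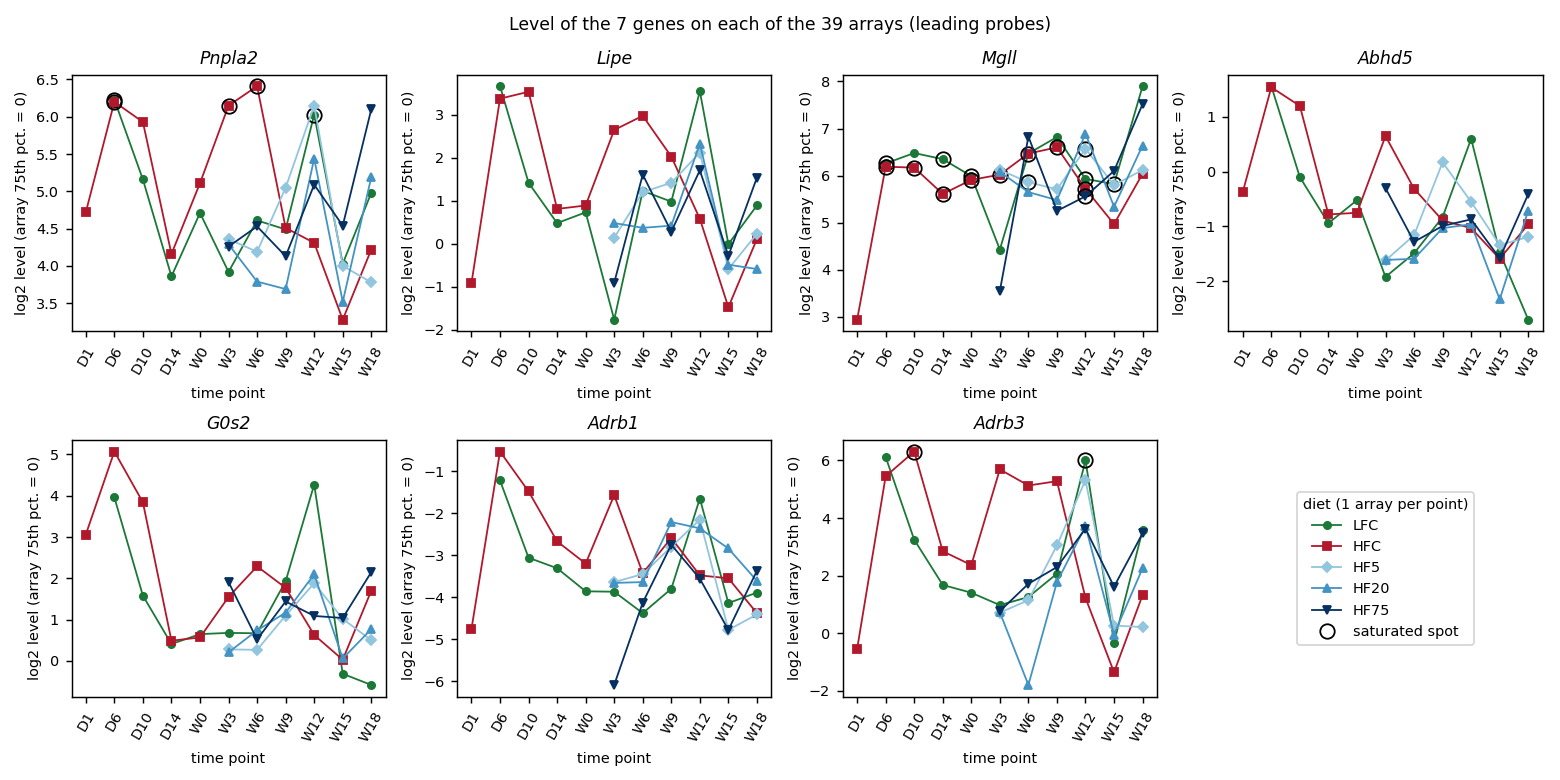
Log2 level of the leading probe of each gene (0 is the 75th percentile of the array) by time point, with 1 point per array and lines joining the arrays of a diet; black rings mark saturated spots. Adrb3 lay above 5 in HFC at Weeks 3, 6 and 9 and in LFC at Week 12, and Mgll was lowest at HFC Day 1 (2.94) and HF75 Week 3 (3.55).

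The first comparison asked whether the high-fat diet changed the pathway. Averaged over the 10 time points with both diets, 6 of the 7 genes had a positive difference (HFC minus LFC) and Mgll a negative one, but no gene passed the test. With quantile normalization the Mgll difference was 0.06, and with normexp background correction that of Adrb1 was -0.16. With saturated spots left out that of Pnpla2 was -0.0011. The median log2 difference of the 7 genes was 0.47, against -0.02 over the 27804 probes tested. No member had an adjusted p under 0.05 or an unadjusted p under 0.05 on its leading probe. The background was as sparse: limma with Benjamini-Hochberg adjustment called 0 probes (0%), and 5.57% of probes had an unadjusted p under 0.05.

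Adrb3 differed by 0.83 ± 0.83 (SE, 10 pairs of arrays), with HFC above LFC on 6 of 10 occasions and a 95% interval of -0.99 to 2.64 (limma, adjusted p = 0.88). The error was as large as the difference, which was 0.39 without Week 3 and 1.45 without Week 12. For Lipe the difference was 0.43 ± 0.58 (6 of 10 time points), and for Pnpla2 0.23 ± 0.35 (6 of 10). Without the LFC array of Week 3 they were -0.01 and 0.0047. The second Pnpla2 probe gave 0.54 ± 0.52, higher at 8 of 10 time points. Mgll differed by -0.28 ± 0.27 and exceeded LFC on 1 of 10 occasions, on a probe saturated on 16 arrays. The second Mgll probe, saturated on 4, gave -0.07 ± 0.34 and 4 of 10. For the regulators, the differences were 0.49 ± 0.35 for Abhd5 (5 of 10) and 0.47 ± 0.48 for G0s2 (7 of 10). With 1 time point left out, Abhd5 ran from 0.26 (without Week 3) to 0.72 (without Week 12), G0s2 from 0.26 (without Week 18) to 0.92 (without Week 12), and Mgll from -0.48 (without Week 3) to -0.10 (without Week 18). Adrb1 had the smallest p of the 7, with 0.63 ± 0.33 and a higher value in HFC at 8 of 10 time points (unadjusted p = 0.082, limma, adjusted p = 0.85), and its other probe gave -0.21 ± 0.21.

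The averages hide large differences of opposite sign at single time points. For Adrb3, HFC minus LFC was -0.67 at Day 6, 3.06 at Day 10, 1.17 at Day 14 and 0.95 at Week 0. It was 4.71 at Week 3, 3.88 at Week 6 and 3.20 at Week 9. It was -4.77 at Week 12, -1.03 at Week 15 and -2.24 at Week 18. So the receptor was higher in HFC at all 6 labelled time points from Day 10 to Week 9, of which Day 14 and Week 0 are the same age, and lower at all 3 after that. Lipe followed with 4.42 at Week 3, 1.74 at Week 6 and 1.04 at Week 9, then -2.96, -1.48 and -0.78 at Weeks 12, 15 and 18. For Pnpla2 the leading probe was saturated on the brighter array at Weeks 3, 6 and 12, and the second probe was at 4.11 in HFC and 0.30 in LFC at Week 3, 4.89 and 2.65 at Week 6, and 2.16 and 5.25 at Week 12. The Adrb3 spots of HFC Day 10 and LFC Week 12 were saturated too. All 7 genes were higher in HFC at Week 3, and none was at Week 12. At Day 6 and at Week 12 the LFC array was scanned on another day than the HFC array, so those differences and scan day cannot be told apart. With scan day as block the whole-course differences were 1.71 for Adrb3, 0.94 for Lipe, 0.50 for Pnpla2 and 0.90 for G0s2, and no probe was called. This division of the weeks was noticed in the values and carries no test, and each difference rests on 1 array per diet. The share of all genes with such signs is not given.

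The other 4 genes did not keep to that course. At Week 9 the difference was -0.07 for Abhd5 and -0.17 for G0s2, at Week 15 it was 0.33 for G0s2 and 0.59 for Adrb1, and the leading Mgll probe was higher in HFC at Week 3 only. At Week 18, Abhd5 and G0s2 in HFC exceeded LFC by 1.74 and 2.28 while Adrb3 and the leading probes of Lipe and Pnpla2 were lower in HFC. The second Pnpla2 probe was higher in HFC there (1.51 against 0.82), and the second Lipe probe was at -0.27 against -0.35. On the LFC array of Week 18 Abhd5 and G0s2 were at their lowest of all 39 arrays. That array was the dimmest, with a 75th percentile of 107.91 against 204 or more on the others, and the part of its dimness was not tested. Cell type lists moved too. HFC minus LFC of the mature adipocyte list was 2.65 at Week 3, 2.06 at Week 6, 0.48 at Week 9 and -2.24 at Week 12. For the lymphocyte list it was -6.37 at Week 3 and -4.13 at Week 9, for the muscle list -4.23 and -5.24, and for the brown and beige adipocyte list -3.44 at Week 9 and -3.65 at Week 12. The part of the other lists was not tested.

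**Figure D2:**
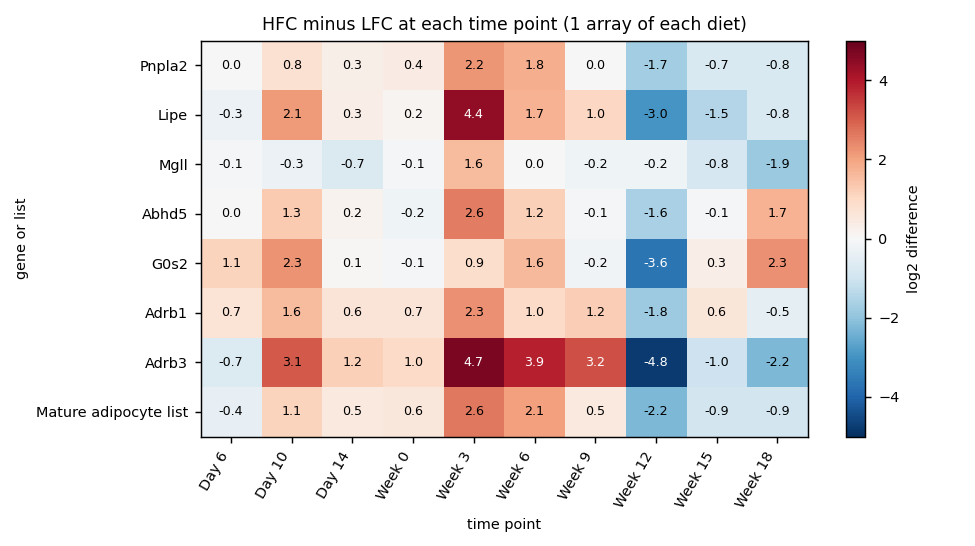
Log2 difference HFC minus LFC at each time point (columns) for the 7 genes and the mean of the mature adipocyte list (rows), from 1 array of each diet; red is higher in HFC and blue is higher in LFC. Adrb3 changed from 4.71 at Week 3 to -4.77 at Week 12, and the adipocyte list had the same sign as Adrb3 at every time point.

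Whether the diet effect differed between late (Weeks 3 to 18) and early time points (Day 6 to Week 0) was tested directly. The late effect minus the early effect ran from -0.63 ± 1.01 for G0s2 to 0.31 ± 0.75 for Abhd5 (SE). It was -0.50 ± 1.77 for Adrb3, so this contrast was poorly resolved. No member was called, nor any probe of the array (0%), and 1.92% of probes had an unadjusted p under 0.05. Of the 12 member probes only the dim second Adrb1 probe had such a p (-0.93 ± 0.37, unadjusted p = 0.0275, limma, adjusted p = 1).

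Among the 30 arrays of Weeks 3 to 18, HFC minus LFC was 0.62 ± 1.00 for Adrb3 (95% interval -1.43 to 2.68) and 0.33 ± 0.60 for Lipe. The other 5 genes lay between -0.26 ± 0.45 (Mgll) and 0.61 ± 0.41 (Abhd5). Again 0 of 29451 probes were called (0%), and 0 of 7 members against 4.89% of probes had an unadjusted p under 0.05.

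The next comparisons asked whether KAL-1 altered the pathway in mice on the high-fat diet. All 3 doses were set against the same HFC arrays, and HFC was also the diet compared with LFC above, so these differences are not independent of each other or of the diet difference. Averaged over the doses, the KAL-1 diets had negative differences from HFC for all 7 genes, with a median of -0.39 against 0.02 over all probes, and none passed. The sign was not stable for 4 genes: Adrb1 was at 0.35 with normexp background correction, Pnpla2 at 0.64 and Mgll at 0.83 with saturated spots left out, and Lipe at 0.04 with array weights. The Adrb3 difference was -1.17 ± 0.81, and it was higher than HFC at 3 of 6 weeks (95% interval -2.85 to 0.51; limma, adjusted p = 1). Without Week 3 it was -0.41 and without Week 12 it was -2.001. The differences were -0.53 ± 0.49 for Lipe, -0.25 ± 0.38 for Pnpla2, -0.02 ± 0.37 for Mgll, -0.39 ± 0.33 for Abhd5, -0.31 ± 0.43 for G0s2 and -0.40 ± 0.39 for Adrb1. Dropping 1 week moved Lipe between -0.93 (Week 12 dropped) and -0.09 (Week 3 dropped), Abhd5 between -0.52 (Week 9) and -0.10 (Week 3), and G0s2 between -0.59 (Week 12) and -0.02 (Week 6). The share of probes called was 0%, and 4.23% had an unadjusted p under 0.05, against 0 of the 7 members.

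By dose, Adrb3 minus HFC was -1.10 ± 1.00 in HF5, -1.77 ± 1.00 in HF20 and -0.63 ± 1.00 in HF75, so no order with dose was seen in the receptor. With the Week 12 arrays exchanged, these values were -1.36 in HF5 and -1.51 in HF20. With each week left out in turn and the arrays as labelled, the Adrb3 differences ran from -2.14 (without Week 12) to -0.32 (without Week 3) in HF5, from -2.63 (without Week 12) to -0.74 (without Week 6) in HF20. The HF75 difference was -1.35 when Week 15 was dropped and 0.22 when Week 3 was. With slide as block it was 0.30, and with array weights 0.54. Without the 5 muscle-rich arrays, HF75 was -0.31 and HF5 was -1.52. Adrb1 was -0.37 ± 0.48 in HF5, 0.11 ± 0.48 in HF20 and -0.95 ± 0.48 in HF75 (unadjusted p = 0.060, limma, adjusted p = 0.88). With normexp background correction Adrb1 was 1.01 in HF20 (limma, adjusted p = 0.0400) and 0.12 in HF75. With quantile normalization Adrb1 in HF20 was -0.17. Without the muscle-rich arrays the Adrb1 value in HF75 was -0.51. It was -0.23 without Week 3, when the HF75 spot was not above background, and -1.34 without Week 18. The lipases and their regulators ranged from -0.72 ± 0.60 (Lipe in HF20) to 0.06 ± 0.45 (Mgll in HF5). At each dose 0 probes were called (0%, 0% and 0%), and 1.25%, 4% and 4.91% of probes had an unadjusted p under 0.05 in HF5, HF20 and HF75, against 0 of 7 members in each. With normexp background correction 12662 probes were called in HF20, where the median difference over all probes was 0.545.

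Week by week the sign turned here too. For Adrb3, HF5 minus HFC was -4.97, -3.98 and -2.23 at Weeks 3, 6 and 9, then 4.10, 1.62 and -1.11 at Weeks 12, 15 and 18. In HF20 it was -4.95, -6.92 and -3.50, then 2.50, 1.30 and 0.93. In HF75 it was -4.91, -3.41 and -2.98, then 2.40, 2.96 and 2.14. Adrb3 was thus below HFC in all 9 KAL-1 arrays of Weeks 3 to 9 and above it in 8 of the 9 of Weeks 12 to 18. Lipe did the same, with 0 of 9 and 8 of 9 arrays above HFC. Marker lists of other cells differed as well: at Week 9 the KAL-1 diets exceeded HFC by 3.23 to 4.93 on the muscle list and 3.44 to 4.32 on the lymphocyte list, and at Week 3 HF75 did so by 11.31 on the muscle list. At Week 12 HF5 minus HFC was 5.98 on the muscle list and 2.22 on the brown and beige list, and HF20 minus HFC was 4.81 on the brown and beige list and -1.91 on the macrophage list. Their part was not tested. At Week 12 HF5 and HF20 were scanned on another day than HFC, as were HF20 and HF75 at Week 6, so those differences and scan day cannot be told apart. Over the 7 genes, 7 of 63 differences were positive in Weeks 3 to 9 and 51 of 63 in Weeks 12 to 18. These counts were made after the values were seen, share the HFC array of each week, and have no test. The same counts over all genes are not given, and the 7 genes were correlated, so they are not separate observations.

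The place of the HFC array among the diets changed over the weeks. At Weeks 3 and 6 the HFC array was the highest of the 5 diets for 5 and 6 of the 7 genes, and at Weeks 12 and 15 it was the lowest for 5 and 4 of them. For Adrb3 the HFC array was the highest at Weeks 3, 6 and 9 and the lowest at Weeks 12 and 15. It had the same places for the mature adipocyte list. At Week 3 Adrb3 was 0.98 in LFC, 0.72 in HF5, 0.73 in HF20 and 0.77 in HF75, against 5.69 in HFC. At Week 18 it was 3.58, 0.22, 2.26 and 3.47 in these diets, with HFC among them at 1.33. None of these weeks has a second HFC array here. How often other genes of the array had these places is not given, and the 7 genes were correlated with each other. The places are therefore not shown to be particular to these genes.

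**Figure D3:**
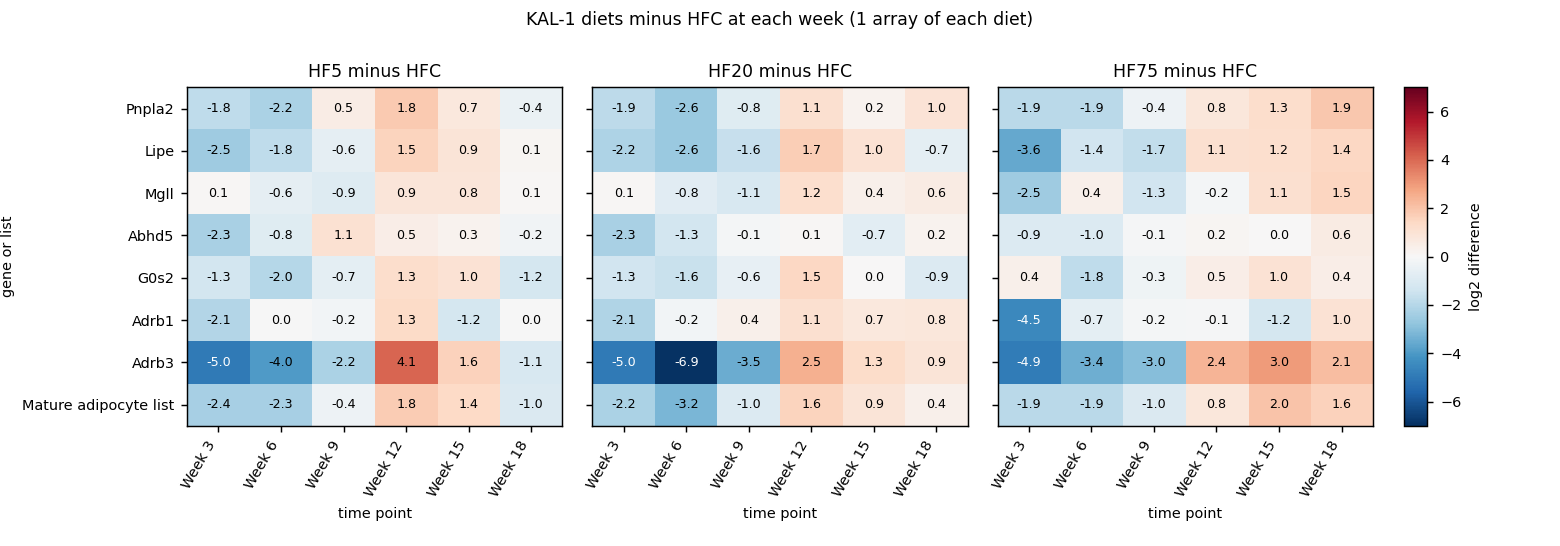
Log2 difference of each KAL-1 diet minus HFC at each week (columns) for the 7 genes and the mean of the mature adipocyte list (rows), from 1 array of each diet; red is higher and blue lower than HFC. Adrb3 was lower than HFC in all 9 arrays of Weeks 3 to 9 and higher in 8 of 9 of Weeks 12 to 18; HF5 and HF20 at Week 12 are as labelled.

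A change over Weeks 3 to 18 common to all diets was fitted as a slope per week. Mgll had the largest, 0.059 ± 0.030 log2 units per week (unadjusted p = 0.057; limma, adjusted p = 0.35). It was 0.020 without Week 18, 0.027 without Week 3 and 0.087 without Week 15. Its second probe gave 0.026 ± 0.036. The slopes of the other 6 genes lay between -0.034 ± 0.047 (Lipe) and -0.0015 ± 0.032 (Pnpla2). Alternative settings aside, this was the only comparison in which probes were called, 26 of 29451 (0.0883%). Of these, 5 rose and 21 fell, with no member among them. The count of calls rested on single weeks, with 0 calls without Week 18 and 3767 without Week 3. At an unadjusted p under 0.05 there were 0 of 7 members against 15% of probes. Arrays of a week were scanned on 1 day, or on 2 days at Weeks 6 and 12, and no day was shared by different weeks, so a change with week and a change with scan day cannot be told apart.

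The levels of the genes were correlated from array to array. Pearson r was at least 0.5 for 16 of the 21 pairs, against 6.21% of all pairs among 20290 genes, and within time points for 11 of 21, against 6.01%. Of the 21 pairs, 18 were correlated over the 39 arrays after Benjamini-Hochberg adjustment over the 21 (permutation test, 100000 resamples, two-sided, threshold 0.05), all 18 positively. Within time points the calls of Abhd5 and of G0s2 with Adrb1 were lost (r = 0.26 and 0.20, both with an adjusted permutation p of 0.361), and with normexp that of G0s2 with Adrb1 (r = 0.21, adjusted p = 0.259). The highest values were Lipe with Adrb3 (Pearson r = 0.87, Spearman rho = 0.85), Pnpla2 with Adrb3 (0.85 and 0.79), Abhd5 with G0s2 (0.85 and 0.76) and Pnpla2 with Lipe (0.81 and 0.74), each with a permutation p of 1e-05, the smallest that these resamples can give, and an adjusted p of 2.1e-05. Between Pnpla2, Lipe and Adrb3 on one side and Abhd5 and G0s2 on the other, r was 0.64 to 0.72. Leaving out the 2 arrays farthest from the median of the first gene gave 0.84, 0.83, 0.77 and 0.77 for those 4 pairs.

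Most arrays of a time point shared a scan day, and the correlations were repeated on deviations from the time point mean (38 arrays). Lipe with Adrb3 then had r = 0.83, Pnpla2 with Adrb3 0.88, Abhd5 with G0s2 0.72 and Pnpla2 with Lipe 0.79. Over all 21 pairs the median r was 0.65 across arrays and 0.52 within time points. Mgll was the least tied: its r was -0.02 with Abhd5, -0.06 with G0s2 and 0.30 with Adrb1 (adjusted permutation p = 0.92, 0.77 and 0.072), and 0.39 to 0.51 with Pnpla2, Lipe and Adrb3. These values rest on its leading probe, saturated on 16 arrays, and its second probe was not correlated with the other genes. Without the 2 arrays farthest from the median Mgll level, r was 0.09 with Abhd5 and 0.15 with G0s2. With quantile normalization Mgll with Adrb1 was at 0.58 (adjusted permutation p = 0.000289). Adrb1 was tied to Adrb3 (r = 0.72, 0.49 within time points), but with normexp background correction that r was 0.34, and that of Pnpla2 with Adrb1 went from 0.55 to -0.05.

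**Figure D4:**
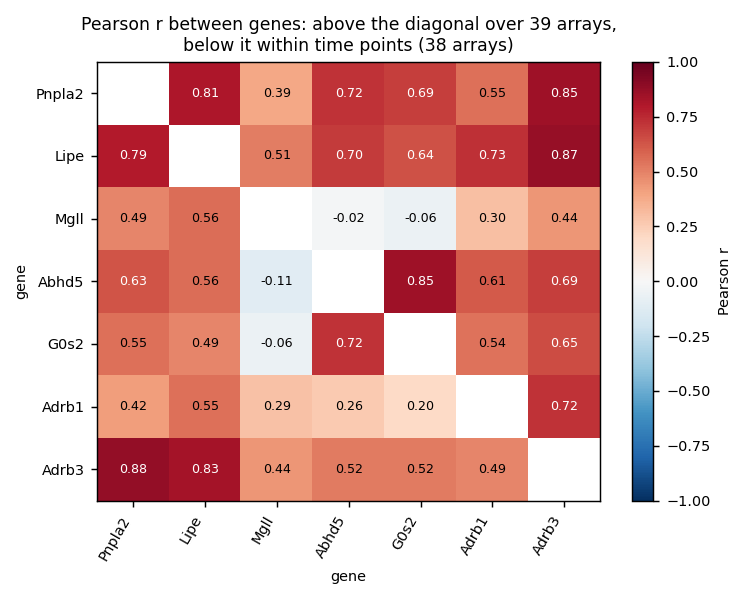
Pearson r between the levels of the 7 genes, above the diagonal over all 39 arrays and below it within time points (deviations from the time point mean, 38 arrays); red is positive and blue negative. Pnpla2, Lipe and Adrb3 have r of 0.81 to 0.87 above the diagonal and Mgll is near 0 with Abhd5 and G0s2. The Mgll probe was saturated on 16 arrays.

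Adrb3 and Pnpla2 had the highest correlations with the mature adipocyte list. For Adrb3, Pearson r was 0.96 (Spearman rho = 0.97, n = 39, permutation p = 1e-05, adjusted p = 7e-05 over the 49 pairs of 7 genes and 7 marker lists), 0.95 without the 2 arrays farthest from the median Adrb3 level and 0.94 within time points. Adrb3 rose by 1.84 log2 units per unit of the list. About that line its standard deviation was 0.59, compared with 2.15 over all arrays. The list holds none of the 7 genes. For Pnpla2 and Lipe r was 0.87 and 0.85 (0.94 and 0.83 within time points), with slopes of 0.68 and 1.05. For Abhd5, G0s2, Adrb1 and Mgll it was 0.72, 0.68, 0.65 and 0.45.

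Other cell types went with other members. Against the skeletal muscle list, r was 0.60 for G0s2 and 0.48 for Abhd5 (adjusted permutation p = 0.000653 and 0.00503), but within time points 0.25 and 0.14. Over all arrays r was 0.19 for Adrb3 and -0.33 for Mgll. For Mgll, Spearman rho was -0.01, and r was 0.10 without the 2 arrays farthest from its median level. Against 6 endothelial genes, r was 0.56 for Mgll and -0.62 for G0s2, and 0.66 and -0.53 within time points. The B and T lymphocyte list went with lower Pnpla2 (r = -0.50) and Lipe (-0.41), and within time points with lower Adrb3 (-0.62). The list of brown and beige adipocyte genes had r = 0.70 with G0s2, 0.63 with Abhd5, 0.60 with Pnpla2 and 0.54 with Adrb3, and 0.45, 0.29, 0.48 and 0.30 within time points. The mammary and skin epithelium list had r = -0.54 with Abhd5 and with G0s2 and -0.49 with Pnpla2, and -0.55, -0.51 and -0.36 within time points. The part that these cells play in the diet differences was not tested one by one.

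**Figure D5:**
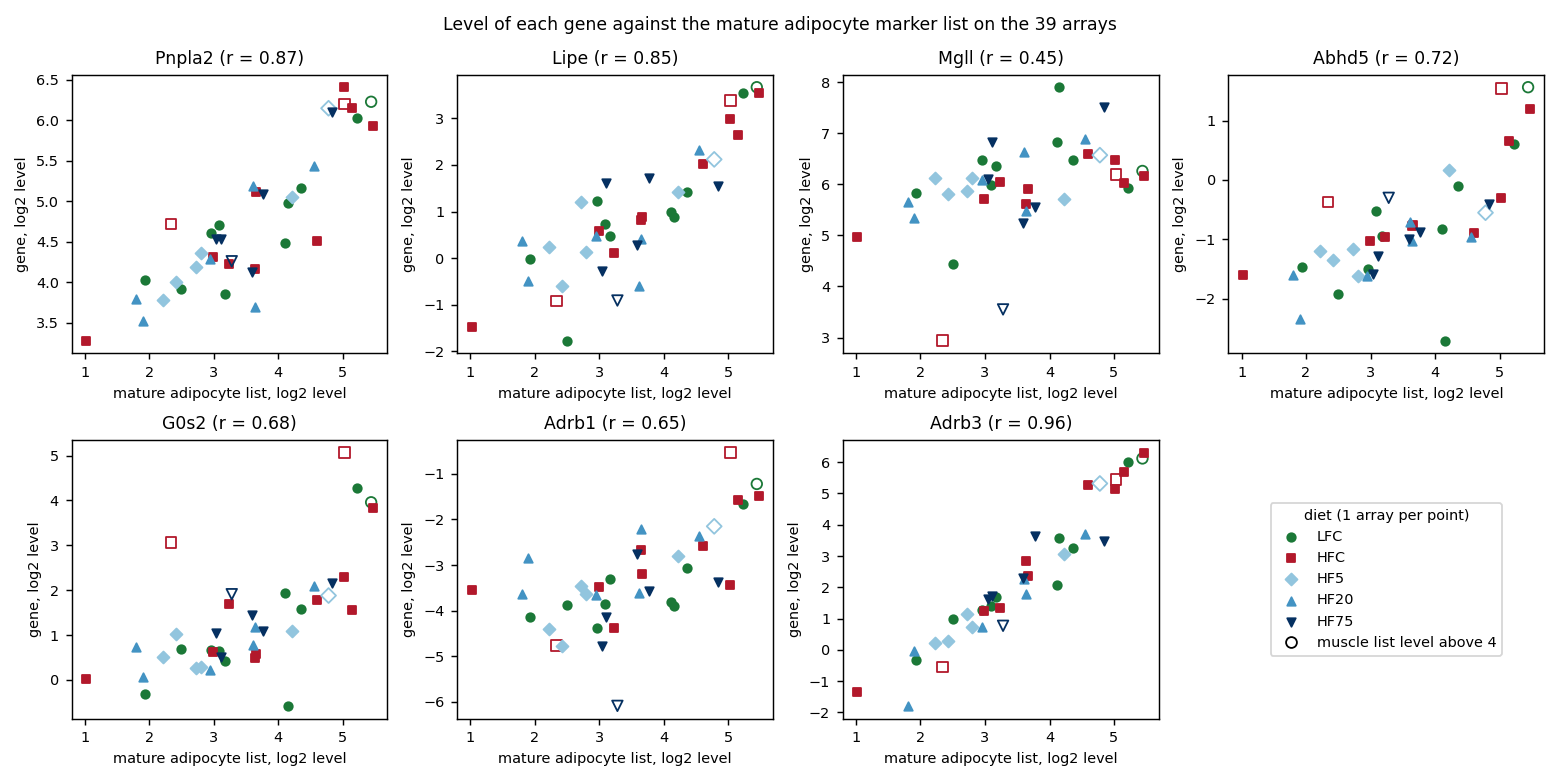
Log2 level of each gene against the mean log2 level of the mature adipocyte list, with 1 point per array, symbols by diet and open symbols for the 5 arrays with a skeletal muscle list level above 4. Over all 39 arrays r was 0.96 for Adrb3 and 0.45 for Mgll.

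With the mature adipocyte list as a covariate, an alternative added after seeing the data, the differences and their errors shrank for the genes that follow the list. Adrb3 in HFC against LFC over all time points became 0.26 ± 0.28 (from 0.83 ± 0.83), Lipe 0.04 ± 0.21 (from 0.43 ± 0.58) and Pnpla2 0.00 ± 0.13 (from 0.23 ± 0.35). Adrb3 in HF20 against HFC became -0.70 ± 0.37 (from -1.77 ± 1.00). Adrb1 in HF75 was -0.92 ± 0.43 (unadjusted p = 0.0427; limma, adjusted p = 0.77), with the Week 3 spot that was not above background included. Mgll in HFC against LFC was -0.38 ± 0.23, and its slope per week was 0.07 ± 0.03 (unadjusted p = 0.0174; limma, adjusted p = 0.24), the smallest p of a member with the covariate. No member passed the adjusted threshold in any comparison. Over the whole array 2 probes did so for HFC against LFC, Golga7b (-2.22) and Slc2a5, a fructose transporter (-4.31), both named after their values were seen.

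The genes whose level was most like each member's were taken by Pearson r over the 39 arrays among 22707 other genes. For Adrb3 they were Plin1, the droplet coat protein that holds Abhd5 in resting fat cells (r = 0.97), Retn (0.97), which belongs to the adipocyte list, and Ces3, an older symbol of the carboxylesterase Ces1d (0.96). Lipe was most like Smoc1 (0.91), Cebpa (0.90), also of the adipocyte list, and Car5b (0.90). Among the genes most like Pnpla2 were Gstz1 (0.89) and Nrg4 (0.88). Abhd5 was most like Pcca, a subunit of propionyl-CoA carboxylase (0.94), Marchf5 (0.94, named through its RefSeq transcript) and Ehhadh (0.93), and G0s2 was most like Ddt (0.92), Hibadh (0.91) and Pcca (0.90). Mgll had other neighbours, Rbp7 (0.92), Dlc1 (0.90) and 1190002H23Rik (0.89). Adrb1 was most like 2810055F11Rik (0.87), Pde3b, the phosphodiesterase through which insulin lowers cyclic AMP (0.83), and 2610020H08Rik (0.82). No p is attached to these ranks.

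The other genes of the pathway gave the same picture of few small p-values and no call. Among lipid droplet proteins and lipase cofactors, 16 of 17 were on the array and 14 were tested. In the whole-course diet comparison 12 of 14 differences were positive, with a median difference of 0.41, and 2 had an unadjusted p under 0.05, against 5.57% of all probes: Fitm2, which helps form droplets (1.27 ± 0.40), and Plin4 (0.85 ± 0.37), both with a limma adjusted p of 0.85. In Weeks 3 to 18 Fitm2 differed by 1.40 ± 0.61 and Cidea, a droplet protein of thermogenic fat cells, by -2.22 ± 0.97. With KAL-1 together, Bscl2 (seipin) was the only one (-0.92 ± 0.40). The shares of all probes with such a p were 4.89% in Weeks 3 to 18, 4.23% with KAL-1 together and 15% over the weeks. Over the weeks, Hilpda, an inhibitor of Pnpla2, had a slope of 0.091 ± 0.031 per week and Plin2 one of 0.058 ± 0.026. None of the 14 had an adjusted p under 0.05 in any comparison.

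Of 19 receptors that stimulate or restrain lipolysis, all were tested in every comparison and 0 were called. Hcar2, the nicotinic acid receptor that restrains lipolysis, had a difference of 0.88 ± 0.37 in HFC against LFC over all time points. Ptger3, the prostaglandin E receptor of the same kind, had differences from HFC of -1.41 ± 0.65 in HF5, -1.36 ± 0.65 in HF75 and -1.25 ± 0.53 with the doses together. Mc2r, the corticotropin receptor, differed by -1.37 ± 0.59 in HF75 and by -1.21 ± 0.49 with the doses together. In HF20, Adra2c was at 1.55 ± 0.71 and Gcgr at -1.05 ± 0.51. Over the weeks, Adra1b, Adra1d and the natriuretic peptide receptor Npr1 had slopes of 0.097 ± 0.036, 0.070 ± 0.028 and 0.080 ± 0.034 per week. All of these had unadjusted p under 0.05 only, and the 3 of 19 with slopes stand against 15% of all probes. The shares of all probes with such a p were 5.57% in HFC against LFC and 1.25%, 4% and 4.91% in HF5, HF20 and HF75. With the doses together the share was 4.23%.

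Of 27 genes of cyclic AMP signalling, 25 were tested in the fits of HFC and LFC over all time points and 27 in the others, and 0 were called. No comparison had more than 2 with an unadjusted p under 0.05, against 1.25% to 15% of all probes. Adcy3, an adenylyl cyclase, was at 0.90 ± 0.41 in HFC against LFC. Pde4d was at -1.10 ± 0.50 for the late minus early effect. Adcy6 was at 2.24 ± 0.94 in HF5, 1.77 ± 0.76 with the doses together and 0.13 ± 0.061 per week. Adcy5 was at -1.24 ± 0.59 in HF75, and Adcy9 at -0.054 ± 0.025 per week. Of 8 genes that handle the released fatty acids and glycerol, such as the glycerol channel Aqp7 and the fatty acid carrier Fabp4, 0 had an unadjusted p under 0.05 in any comparison, with median differences from -0.33 (HF20 against HFC) to 0.01 (HF75 against HFC) among the diet comparisons of Weeks 3 to 18 that involve KAL-1.

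The promoters of the member genes were compared as sequence. RefSeq promoters of GRCm38.p6, 250 bases before to 50 bases after a start, were matched by symbol for 6 of the 7 genes, 8 promoters in all; Adrb3 was not matched. They were searched on both strands for GGGCGG (GC box), CACGTG (E-box), TGACGTCA (full cyclic AMP response element), TGACG (its core) and TATAAA. The core also lies within the full element. GGGCGG was in 7 of the 8 promoters and in 35.7% of all 32851 promoters, CACGTG in 2 of 8 and 7.15%, and TGACG in 4 of 8 and 20.8%. TGACGTCA and TATAAA were in 0 of 8, against 1.79% and 13.6% of all promoters. The promoters of Pnpla2 and of the upstream start of Lipe, the lipase pair with the highest correlation, are shown because both hold GC boxes and only the latter an E-box, with these 2 motifs, on either strand, in capitals.
Pnpla2, chr7:141454938-141455237, plus strand: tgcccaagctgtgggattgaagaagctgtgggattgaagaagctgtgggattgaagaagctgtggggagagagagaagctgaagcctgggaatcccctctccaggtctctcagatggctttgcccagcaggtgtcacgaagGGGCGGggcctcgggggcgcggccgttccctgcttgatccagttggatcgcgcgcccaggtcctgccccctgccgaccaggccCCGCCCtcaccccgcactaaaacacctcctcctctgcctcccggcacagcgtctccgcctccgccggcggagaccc
Lipe, chr7:25395938-25396237, minus strand: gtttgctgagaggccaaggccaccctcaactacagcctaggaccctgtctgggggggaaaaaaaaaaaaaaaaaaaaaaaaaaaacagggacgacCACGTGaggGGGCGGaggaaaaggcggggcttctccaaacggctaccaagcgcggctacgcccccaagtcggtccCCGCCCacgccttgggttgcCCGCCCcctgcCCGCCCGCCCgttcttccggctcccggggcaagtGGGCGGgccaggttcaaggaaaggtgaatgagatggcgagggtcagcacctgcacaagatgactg
The Lipe sequence held 6 GC boxes and 1 E-box and the Pnpla2 sequence 2 and 0. The downstream start of Lipe, not shown, held none of the motifs searched and was the only member promoter without a GC box. The other E-box was in the first of the 2 Mgll promoters. A match is a description of the letters and not a site of binding.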

How the data were processed

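Total RNA from subcutaneous fat was amplified linearly, labelled with Cy3 and hybridised to Agilent single-colour arrays, 39 in all. Per the file headers, the authors extracted processed intensities with Feature Extraction 10.5.1.1, while the submitters' processing notes name version 9.1. The deposited table holds log2 ratios that the authors made in GeneSpring GX per probe against LFC (the LFC columns are 0), and it was used to check labels and, as an alternative, in place of the arrays. The diet and time point of each array came from the labels.

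Processed intensity was averaged over spots of a probe, taken as log2 and centred on the 75th percentile of the array, which was between 107.91 and 1285.3. Probes were tested if they were well above background on a number of arrays no lower than the size of the smallest group in the fit, with limma 3.58.1 in R 4.3.3 (lmFit and eBayes, time point as a block, two-sided, Benjamini-Hochberg over all probes, threshold 0.05). Change per week was fitted with diet and no block. For a gene, the probe of highest mean level led. Besides the members, the text names genes of 4 pathway lists with an unadjusted p under 0.05 and the 3 genes most correlated with each member, of which 1 is not reported here. Correlations used permutation tests (100000 resamples, SciPy 1.17.1). The members and lists were chosen with earlier results of these data known. The fits were tested on simulated data. Alternatives were normexp background correction (offset 50), quantile normalization, no filter, saturated spots left out, scan day or slide as a block, array weights, and each time point, with all its arrays, left out in turn. The number of arrays limits the precision.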

Additional observations from a re-analysis of the deposited data

Results flagged for a closer look

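Lipe stood apart on 1 array among its diet. On the array labelled HF20 at Week 12 its level was 2.33, while the other 5 HF20 arrays lay between -0.59 and 0.48. This was the only such case among 28 groups of arrays examined for the leading probes, and chance gives about 1 in 20. HFC was not examined, since its 11 arrays were more than the rule covers. The same array had the highest brown and beige adipocyte list level of all 39 arrays (3.04) and the highest mature adipocyte list level of the HF20 arrays (4.55, against 1.80 to 3.64), and their part was not tested. The array is one of the pair whose HF5 and HF20 labels conflict with the deposited ratios.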

How the results depend on the processing

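Over the differences of all 7 genes in every comparison, 141 of 1285 alternative values reversed and 1 passed the threshold. For the 7 genes in HFC against LFC over the whole course, KAL-1 together and change per week, and for Adrb1 and Adrb3 by dose, 567 of 614 kept their direction and their side of the threshold, 46 reversed and 1 passed the threshold. The diets were paired by time point, as a block, in every comparison except change per week. Without that block 628 in place of 1549 probes had an unadjusted p under 0.05 for HFC against LFC, and no probe was called. No paired analysis by replicate number was possible because only a few titles, at Weeks 0 and 3, carry one. The cause of each change below was not tested.

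In the whole-course comparison of HFC and LFC, 0 probes were called except with the adipocyte list as covariate (2). The Pnpla2 difference was -0.0011 with saturated spots left out and -0.003 with the covariate, Mgll was 0.0561 with quantile normalization, Adrb1 was -0.1595 with normexp, and Lipe was -0.0131 without the LFC Week 3 array (-0.0131 to 0.8074 with each time point left out). For HF20 against HFC, normexp called 12662 probes, with a median over all probes of 0.545, and Adrb1 was then 1.01 (limma, adjusted p = 0.0400). Otherwise Adrb1 was -0.1732 (quantile), -0.1254 (scan day as block), -0.0771 (slide as block) and -0.0690 without the HF20 Week 15 array (-0.0878 to 0.5551 with each time point left out). In HF75, Adrb1 was 0.1207 with normexp, and Adrb3 was 0.2974 with slide as block and 0.5376 with array weights (-1.3522 to 0.2235 with each time point left out). For the KAL-1 doses together, Pnpla2 was 0.6415 with saturated spots left out and 0.0565 with the covariate (-0.5524 to 0.1457 with each time point left out), and Lipe was 0.0437 with array weights. Mgll was 0.8307 with saturated spots left out, 0.2394 with array weights, 0.0026 without the HF20 Week 15 array, 0.0647 without the muscle-rich arrays and 0.1613 with the covariate (-0.1785 to 0.1992 with each time point left out). Adrb1 was 0.348 with normexp (-0.6393 to 0.0969 with each time point left out).

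For change per week, 26 probes were called, against 1 with normexp, 57 with quantile normalization, 6 without a filter, 0 with scan day as block, 1 with slide as block, 652 with array weights, 5 without the LFC Week 3 array, and 0 to 3767 with each time point left out (0 without Week 18, 1 without Week 15, 11 without Week 6 or Week 9, 112 without Week 12 and 3767 without Week 3). The Pnpla2 slope was 0.0053 with normexp, 0.0332 with saturated spots left out, 0.0013 with scan day, 0.0041 without the HF20 Week 15 array and 0.0086 with the covariate, and -0.0247 to 0.029 with each time point left out. The Adrb3 slope was 0.0029 with scan day and 0.0137 with the covariate (-0.0501 to 0.0673 with each time point left out). With each time point left out, the slope was -0.1226 to 0.0141 for Lipe, -0.0366 to 0.0163 for G0s2 and -0.0478 to 0.0224 for Adrb1. Of the correlations, Pnpla2 with Adrb1 was -0.05 with normexp, Mgll with Abhd5 0.04 with normexp and 0.12 with quantile, Mgll with G0s2 0.09 and 0.01, and Mgll with Adrb1 -0.06 with normexp but 0.58 with quantile (adjusted permutation p = 0.000289). The covariate and the fits without the HF20 Week 15, LFC Week 3 and muscle-rich arrays were chosen after seeing the data. With slide as a random block the comparison of HFC and LFC over all time points could not be fitted.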
